A study of Mus musculus with 10 samples.

Results

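The matrix metalloproteinases (MMPs), the ADAM and ADAMTS metalloproteinases and their inhibitors, the TIMPs, were followed in mouse lung squamous cell carcinoma (SCC). Genes were chosen by symbol alone (Mmp, Adam or Adamts with a number, and Timp1 to Timp4), which gave 73 genes: 23 MMPs, 27 ADAMs, 19 ADAMTSs and 4 TIMPs. Of these, 66 had a probe among the 19096 genes on the array to which a symbol could be given, and each was represented by the probe that was brightest over all arrays. Adam3, Adam10, Adam20, Adam34, Adamts17, Mmp1b and Mmp27 had no paired probe and are not analysed here. A member was tested when its probe was well above background on at least 4 of the 5 arrays of either group. This held for 47 members, that is 16 MMPs, 14 ADAMs, 13 ADAMTSs and all 4 TIMPs, and the other 19 are described by their values only.

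Total RNA of whole tissue was measured on single-colour Agilent arrays, 1 per sample, with 5 wild-type lungs (WT) and 5 SCC samples (SCC). WT mice were Lkb1f/f, that is they carried floxed Lkb1 alleles without Cre. SCC mice were CCSPiCreLkb1f/f, so that the same floxed alleles were deleted where the CCSP promoter drives Cre, in airway epithelium. All mice were 13 months old and of B6.129 strain per the labels, and the tumour was compared with whole lung, not with the airway epithelium from which Cre was driven. The labels give each sample its own replicate number but do not say more about separate animals, so p-values measure the spread between these samples. Lkb1 itself (Stk11) had no paired probe and could not be used to check the genotype.

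Between 71.0% and 74.5% of probes were well above background on 9 arrays, and 90.2% on SCC replicate 5. That array held both Xist at 13.75 log2 units and the Y-linked Ddx3y at 8.34, while each of the other 9 arrays had one high and the other low. SCC replicate 2 also stood apart. It was the only tumour with low Xist (2.58) and high Ddx3y (11.28), a pattern that WT replicates 2 and 3 shared among the lungs, and the labels give no sex. The mean level of 6 squamous markers (Krt5, Krt14, Krt6a, Trp63, Dsg3, Sprr1b) was 9.97 on SCC replicate 2, 13.70 to 14.15 on the other SCC arrays and 3.87 to 4.63 on the WT arrays, so that every SCC array was above every WT array. WT replicates 1 to 4 lay on one slide, WT replicate 5 with SCC replicates 1 to 3 on a second and SCC replicates 4 and 5 on another. Group and slide were therefore largely confounded, and within-slide values and a fit with slide as a block are given for members where they change a call. No such fit is given for the marker and pathway genes, whose calls are those of the main fit.

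MMPs are zinc-dependent endopeptidases, secreted or held at the membrane, that are made as inactive zymogens and cut collagens, elastin and other matrix proteins as well as cytokines and receptors. ADAMs are mostly transmembrane proteins, of which the catalytically active ones release the ectodomains of growth factors, cytokines and adhesion molecules, while the ADAMTS enzymes are secreted, bind the matrix and process proteoglycans, procollagens and von Willebrand factor. TIMPs block MMPs by binding the active site, and Timp3, which is kept in the matrix, also inhibits several ADAM and ADAMTS enzymes.

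A run of 10 neighbouring MMP genes on mouse chromosome 9 held 4 of the 9 members called higher in SCC, and the bases just upstream of a listed transcription start of 6 of its genes are shown because an AP-1 motif recurs among them. In RefSeq order (assembly GRCm38.p6) these genes are Mmp13, Mmp12, Mmp1b, Mmp3, Mmp1a, Mmp10, Mmp8, Mmp27, Mmp20 and Mmp7, with Dcun1d5 and Tmem123 on either side. The 120 bases shown end 1 base before the start and are written 5′ to 3′ on the plus strand, with the AP-1 motif TGANTCA and the core promoter element TATAAA in capitals. They lie at chr9:7272394-7272513 for Mmp13, chr9:7347254-7347373 for the second listed start of Mmp12, chr9:7445702-7445821 for Mmp3, chr9:7502222-7502341 for Mmp10, chr9:7558309-7558428 for Mmp8 and chr9:7691970-7692089 for the first listed start of Mmp7.
Mmp13: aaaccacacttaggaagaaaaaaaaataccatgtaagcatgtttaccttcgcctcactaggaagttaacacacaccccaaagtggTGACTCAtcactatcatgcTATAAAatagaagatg
Mmp12: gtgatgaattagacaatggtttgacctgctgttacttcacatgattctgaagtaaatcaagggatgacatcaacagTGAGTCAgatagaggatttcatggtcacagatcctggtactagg
Mmp3: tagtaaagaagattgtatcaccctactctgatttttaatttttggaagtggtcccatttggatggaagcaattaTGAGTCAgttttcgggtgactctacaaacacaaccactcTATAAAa
Mmp10: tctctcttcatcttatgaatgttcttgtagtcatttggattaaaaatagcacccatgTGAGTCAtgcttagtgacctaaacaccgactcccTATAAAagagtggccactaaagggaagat
Mmp8: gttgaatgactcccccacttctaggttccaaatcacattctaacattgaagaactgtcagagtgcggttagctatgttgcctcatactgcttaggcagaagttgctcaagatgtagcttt
Mmp7: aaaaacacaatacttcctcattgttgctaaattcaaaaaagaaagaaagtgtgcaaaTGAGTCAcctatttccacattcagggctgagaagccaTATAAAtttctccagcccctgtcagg
The AP-1 motif began 35 bases before the start in Mmp13, 44 in Mmp12, 46 in Mmp3 and 63 in both Mmp10 and Mmp7. Mmp8 had none in this window, nor had the first listed start of Mmp12 or the second of Mmp7. Of the cluster genes not shown, which were not tested or had no probe, Mmp1a, Mmp1b and Mmp20 also held it. It began there 73, 93 and 95 bases before the start, and Mmp27 held none. Of the 44 members in the RefSeq promoter table, 12 (27.3%) held TGANTCA, which reads the same pattern on both strands, within 250 bases upstream of a listed start, against 7.82% of all 27025 genes in the table. TATAAA on either strand was found for 22.7% of these members and 14.3% of all genes. AP-1 motifs were listed for 7 of 16 MMPs that had a probe and a promoter, 3 of 9 ADAMs and none of 9 ADAMTSs and 4 TIMPs. Among members called in SCC, 3 of 7 higher and none of 6 lower members with a promoter held it, and 9 of the other 31 members did (29.0%). The 3 higher ones were all MMPs. A motif match is a description of the letters and not of binding.

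Of the 47 tested members, 20 were called, that is they passed a limma adjusted p of 0.05 with at least a 2-fold difference, 9 of them higher and 11 lower in SCC. This was 42.6%, where 24.9% of all 15586 tested genes were called, 11.6% higher and 13.4% lower. By family, MMPs had 5 members higher and 2 lower, with a median difference of 1.15 log2 units over the 16 tested. ADAMs had 3 higher and 1 lower (median -0.19 over 14), and ADAMTSs none higher and 6 lower (median -0.55 over 13). The TIMPs split, with Timp1 higher and Timp2 and Timp3 lower. The median was -0.14 over all 47 members and -0.04 over all tested genes. Without the 2-fold requirement, 29 of the 47 members passed, against 53.9% of all tested genes. Values did not overlap between groups for 21 of 47 members, against 41.4% of all tested genes. Of the called members, Mmp10, Adam2, Mmp16 and Adamts6 were tested through one group only, the one in which they were higher. Requiring signal well above background on all 10 arrays left 36 members, of which 14 (38.9%) were called, 7 in each direction, against 22.3% of 14183 genes under the same requirement.

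**Figure D1:**
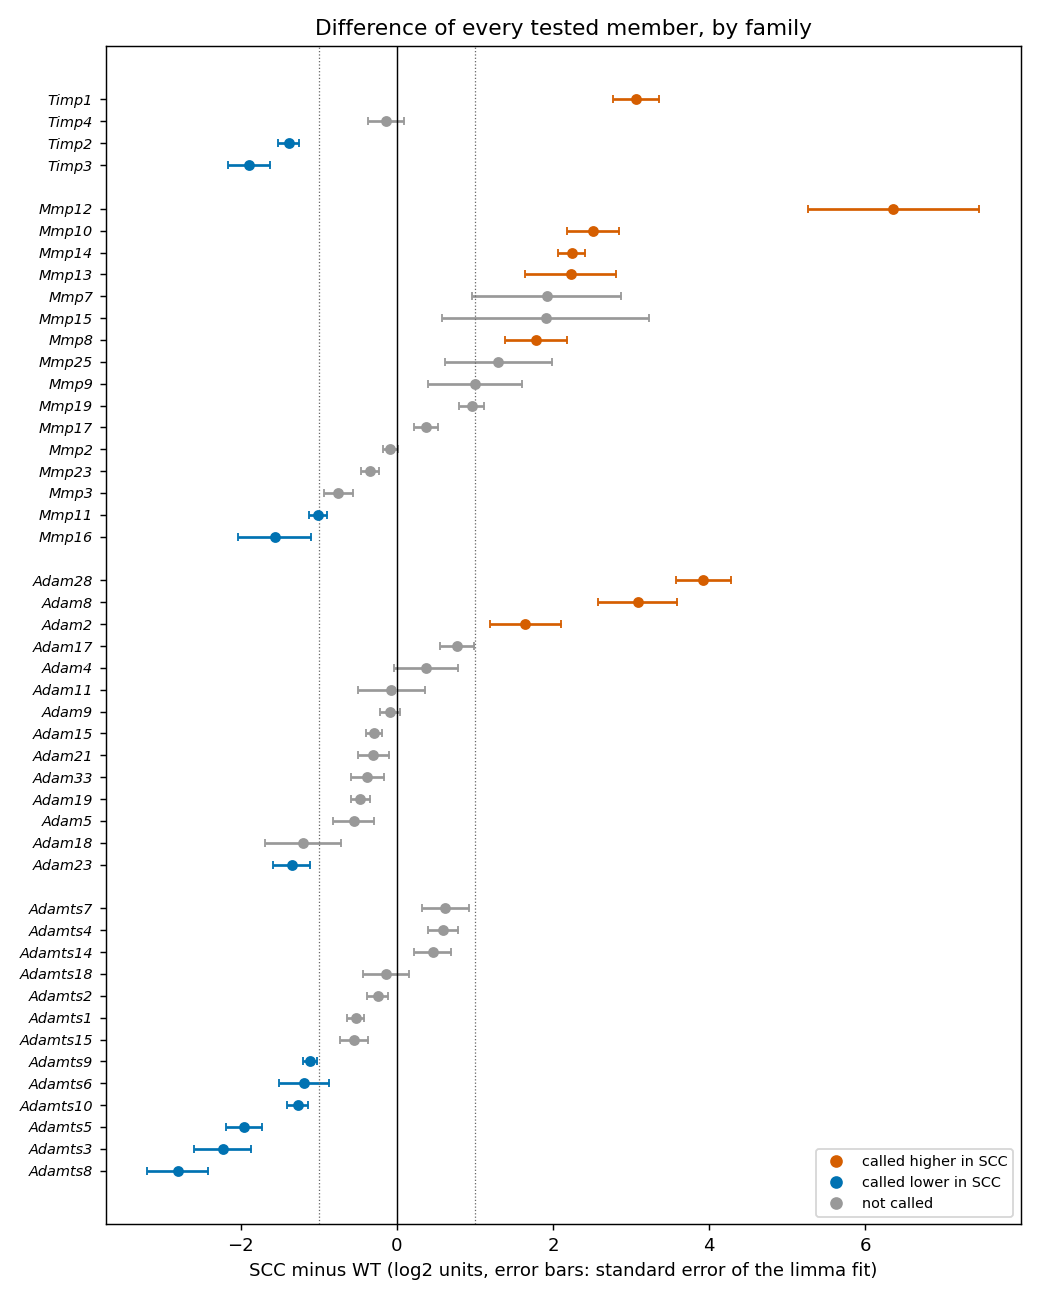
Difference between SCC and WT for each of the 47 tested members, in log2 units, grouped by family from TIMP at the top to ADAMTS at the bottom. Points are limma estimates with bars for the standard error, colours give the call and dotted lines mark a 2-fold difference; called ADAMTS members all lie to the left, and 5 of 7 called MMPs to the right.

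The inhibitors came out in opposite directions. Timp1, a soluble inhibitor induced by cytokines and growth factors, was at 10.22, 10.07, 9.83, 10.39 and 9.97 log2 units in WT replicates 1 to 5 and at 13.36, 12.14, 13.80, 12.86 and 13.67 in SCC replicates 1 to 5. Every SCC array was above every WT array, by 3.07 log2 units or 8.38-fold on average (SE 0.30, adjusted p = 3.96e-05), and a second Timp1 probe differed by 3.20. Timp3, the matrix-bound inhibitor, was at 15.94, 16.01, 15.96, 15.81 and 16.06 in WT and at 14.08, 15.15, 13.49, 13.74 and 13.84 in SCC. It fell by 1.90 log2 units (SE 0.27, adjusted p = 0.000371), with no overlap and with SCC replicate 2 nearest to WT. Timp2, which inhibits MMPs and also takes part in the activation of pro-MMP2 by Mmp14, was at 15.89, 16.11, 16.11, 15.80 and 15.83 in WT and at 14.54, 14.95, 14.23, 14.61 and 14.47 in SCC. This was a fall by 1.39 log2 units (SE 0.14, adjusted p = 4.62e-05), again without overlap. Timp4 was at 7.34, 7.41, 7.37, 6.97 and 7.57 in WT and at 6.83, 7.47, 6.54, 7.79 and 7.36 in SCC, overlapping fully (difference -0.14, SE 0.23, adjusted p = 0.643). With slide as a fixed block, the Timp3 difference was -1.82 and its adjusted p rose to 0.0565, while Timp1 and Timp2 stayed called.

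Mmp12, the macrophage elastase, had the largest difference of all members. It was at 5.87, 5.64, 5.65, 6.16 and 5.53 log2 units in WT and at 12.91, 7.33, 13.68, 13.50 and 13.23 in SCC, so that SCC averaged 6.36 log2 units or 82.1-fold above WT (SE 1.10, adjusted p = 0.00111). All SCC arrays were above all WT arrays, but SCC replicate 2 lay closer to WT than to the other 4 tumours. Without that array the difference was 7.56 (adjusted p = 1.35e-08). Mmp14, the membrane-anchored MT1-MMP that activates pro-MMP2 at the cell surface, was at 12.57, 12.47, 12.85, 12.41 and 12.70 in WT and at 15.04, 14.25, 14.83, 15.17 and 14.93 in SCC. Its spread was the smallest among the called higher MMPs and the groups were well apart (difference 2.24, SE 0.17, adjusted p = 1.23e-05). A second, dimmer Mmp14 probe gave 2.45.

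The collagenases Mmp13 and Mmp8 rose with the same exception. Mmp13 was at 6.70, 6.44, 6.44, 7.19 and 6.39 in WT and at 9.47, 6.56, 10.04, 8.53 and 9.69 in SCC (difference 2.23, SE 0.59, adjusted p = 0.0108). Mmp8, the collagenase stored in neutrophil granules, was at 8.38, 7.90, 7.85, 8.41 and 7.39 in WT and at 10.08, 8.28, 10.02, 10.50 and 9.96 in SCC (difference 1.78, SE 0.39, adjusted p = 0.00434). For both genes SCC replicate 2 fell within the WT range and the other 4 SCC arrays lay above it. Mmp10 (stromelysin-2) did not rise well above background in WT, where it read 2.69, 3.94, 3.10, 3.89 and 3.60, and was so on all SCC arrays at 5.80, 5.10, 6.35, 6.71 and 5.84. By a bound it was at least 3.79-fold higher in SCC in the main normalization (adjusted p = 0.000239). The bound was set by the lowest signal of any probe well above background on each WT array. Under normexp background correction the Mmp10 difference was 0.66 log2 units. The bound, like those given below, is therefore one for the main normalization only. With slide as a fixed block, the difference was 5.77 for Mmp12 (adjusted p = 0.103), 2.31 for Mmp13 (0.229) and 2.07 for Mmp8 (0.0825), Mmp10 had an adjusted p of 0.0643, and only Mmp14 of the higher MMPs stayed called. Only WT replicate 5 shares a slide with SCC arrays (replicates 1 to 3), so that the difference in this fit comes from 1 WT and 3 SCC arrays.

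**Figure D2:**
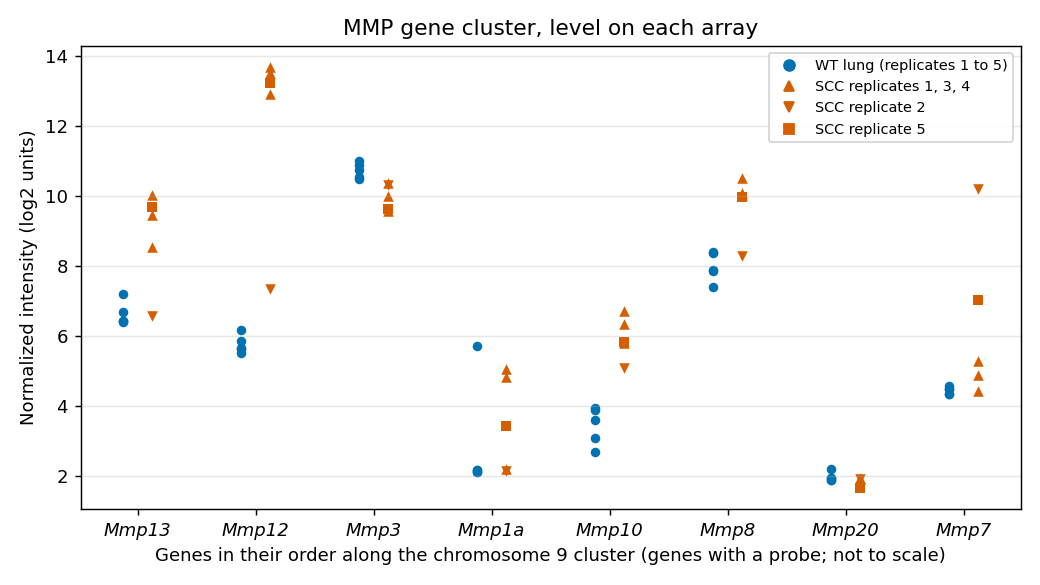
Normalized intensity in log2 units of the 8 genes of the chromosome 9 MMP cluster that have a probe, on each of the 10 arrays, in the order of the genes and not to scale. Mmp13, Mmp12, Mmp10 and Mmp8 are higher in most SCC arrays, Mmp3 is lower, Mmp7 is high on SCC replicate 2 at 10.21, and levels of different genes are not comparable because each has its own probe.

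Neighbours within the cluster did not move together. Mmp3 (stromelysin-1), which sits between Mmp12 and Mmp10 and whose upstream bases also held an AP-1 motif, was at 11.00, 10.75, 10.47, 10.55 and 10.88 in WT and at 10.01, 10.30, 9.57, 10.37 and 9.64 in SCC. It was lower without overlap but by less than 2-fold (difference -0.75, SE 0.19, adjusted p = 0.00787). Mmp7 (matrilysin), an epithelial MMP, stayed at 4.34 to 4.57 in WT and read 4.42, 10.21, 5.29, 4.90 and 7.02 in SCC (difference 1.92, SE 0.96, adjusted p = 0.121). Here SCC replicate 2 was the highest array, in contrast to Mmp12, Mmp13, Mmp8 and Mmp10, where it was the lowest tumour. Without SCC replicate 2 the Mmp7 difference was 0.96 (adjusted p = 0.0977). Mmp1a and Mmp20 were not tested, and no array measured Mmp20 well above background.

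The gelatinases did not pass. Mmp2 was at 10.92, 10.99, 11.18, 10.98 and 10.69 in WT and at 10.77, 10.93, 10.89, 10.84 and 10.92 in SCC (difference -0.08, SE 0.10, adjusted p = 0.514). Mmp9 was at 8.45, 8.72, 7.95, 8.51 and 7.84 in WT and at 9.72, 6.79, 9.91, 10.42 and 9.66 in SCC (difference 1.01, SE 0.60, adjusted p = 0.190). On SCC replicate 2 Mmp9 was below every WT array and on the other 4 above every WT array, and without that array the difference was 1.63 (adjusted p = 0.000288). Mmp25, a membrane-anchored MMP of neutrophils, ran the same way, at 3.74 on SCC replicate 2, 6.56 to 7.59 on the other SCC arrays and 4.42 to 6.18 in WT, and its difference went from 1.30 (adjusted p = 0.141) to 1.97 (adjusted p = 0.00149) without that array. Mmp19 was higher without overlap but just short of 2-fold (difference 0.96, adjusted p = 0.000973), and it was called under 8 alternatives. Among these were slide as a fixed block (1.19, adjusted p = 0.0458), scaling to the 75th percentile (1.15), array weights (1.13) and leaving out WT replicate 4 (1.00), SCC replicate 2 (1.09) or SCC replicate 5 (1.01).

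Mmp11 and Mmp16 were the called lower MMPs. Mmp11 (stromelysin-3), which is activated inside the cell by furin, was at 11.91, 11.52, 11.84, 11.66 and 11.55 in WT and at 10.74, 10.94, 10.53, 10.54 and 10.67 in SCC. The groups were apart and the fall was by 1.01 log2 units (SE 0.12, adjusted p = 0.000107), close to the 2-fold limit. Without WT replicate 1, WT replicate 3, SCC replicate 3 or SCC replicate 4 the Mmp11 difference was -0.96, -0.98, -0.97 and -0.98, below 2-fold, with an adjusted p of at most 0.000542. With slide as a block its difference was -0.82 (adjusted p = 0.0517). Mmp16 (MT3-MMP) was well above background on all WT arrays at 5.91, 4.68, 4.86, 4.61 and 5.32 and on 1 SCC array, with 3.19, 4.37, 4.45, 3.58 and 1.99 in SCC. It was tested through its WT arrays alone, and the size of its difference, -1.56 in the fit and -0.34 under normexp background correction, rests on SCC readings near background. The slide block gave -1.32 (adjusted p = 0.289) and ended the call. Mmp15, another membrane-type MMP, was at 3.42 on WT replicate 1 and 10.48 to 11.03 on the other WT arrays. Its difference of 1.91 (adjusted p = 0.254) rested on that array and was 0.45 (adjusted p = 0.0514) without it.

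Adam28 and Adam8 rose most among the ADAMs. Adam28, a metalloproteinase of lymphocytes and epithelia that cuts insulin-like growth factor binding protein 3, was at 8.65, 7.37, 8.32, 7.14 and 8.81 in WT and at 11.99, 12.37, 11.44, 12.40 and 11.73 in SCC. It was 15.2-fold higher (difference 3.93, SE 0.36, adjusted p = 2.79e-05), with 2 further probes at 3.54 and 3.51. Among the called higher members it alone did not have SCC replicate 2 as the lowest tumour. Adam8, a protease of myeloid cells, was at 12.41, 13.25, 12.59, 12.14 and 13.01 in WT and at 16.22, 13.67, 16.38, 16.26 and 16.28 in SCC (difference 3.08, SE 0.51, adjusted p = 0.000883). SCC replicate 2 was just above the highest WT array and the other 4 tumours were tightly grouped. With slide as a block Adam8 differed by 2.41 and its adjusted p was 0.137, while Adam28 stayed called.

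Adam2, a sperm surface protein also called fertilin beta, did not rise well above background in WT (3.42, 3.70, 2.84, 4.15 and 3.77) and was so on 4 SCC arrays, with 4.99, 3.58, 5.59, 5.83 and 6.09. It was at least 2.2-fold higher in SCC by the bound in the main normalization (adjusted p = 0.0137), with SCC replicate 2 inside the WT range. Under normexp background correction the Adam2 difference was 0.34 log2 units. Adam23, which lacks catalytic activity and acts in cell adhesion, was at 6.41, 6.77, 6.64, 6.64 and 6.38 in WT and at 5.51, 5.66, 4.31, 5.46 and 5.18 in SCC, lower without overlap (difference -1.34, SE 0.24, adjusted p = 0.00128). With slide as a block Adam23 differed by -1.22 (adjusted p = 0.129) and the adjusted p of Adam2 was 0.426, so that both lost the call.

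The ADAMs best known as sheddases did not reach 2-fold. Adam17, which releases TNF and ligands of the EGF receptor, was at 11.09, 11.14, 11.08, 11.03 and 10.80 in WT and at 11.97, 10.93, 12.08, 12.05 and 11.98 in SCC (difference 0.78, SE 0.22, adjusted p = 0.0141), and a second probe gave 0.77. SCC replicate 2 was again inside the WT range and the other 4 were above it. Adam9 was at 14.64, 14.47, 14.63, 14.39 and 14.48 in WT and at 14.54, 14.71, 14.54, 14.08 and 14.28 in SCC (difference -0.09, adjusted p = 0.569). Adam15, an ADAM that also binds integrins, was at 13.12, 12.82, 13.15, 12.76 and 13.12 in WT and at 12.73, 12.66, 12.62, 12.77 and 12.73 in SCC (difference -0.29, adjusted p = 0.0387). Adam10 had no paired probe, so the other main sheddase is not covered.

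**Figure D3:**
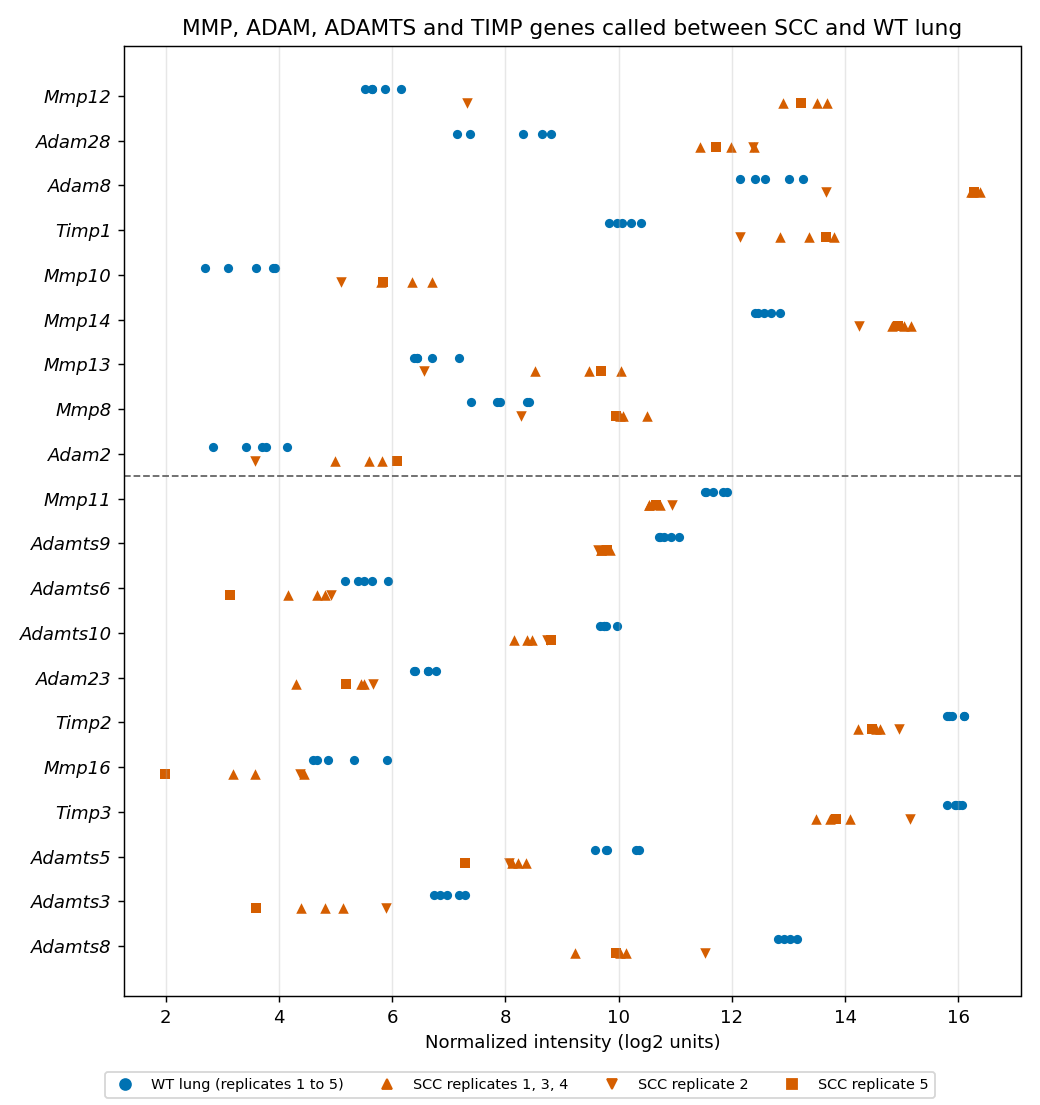
Normalized intensity in log2 units of the 20 called members on each array, with WT as circles and SCC as triangles, an inverted triangle for SCC replicate 2 and a square for SCC replicate 5; members above the dashed line are higher in SCC. SCC replicate 2 is the SCC array nearest to WT in 8 of the 9 higher and 7 of the 11 lower members.

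All 6 called ADAMTS members were lower in SCC, and none overlapped between groups. Adamts8, an aggrecan-cleaving enzyme, was at 13.16, 13.02, 12.92 and 12.82 on WT replicates 2 to 5, with no usable spot on WT replicate 1, and at 10.03, 11.52, 9.23, 10.14 and 9.95 in SCC. It was 7-fold lower (difference -2.81, SE 0.39, adjusted p = 0.000452), and a second probe measured on all arrays gave -2.57. Adamts3, which removes the amino-terminal propeptide of fibrillar procollagens and cuts VEGF-C, was at 6.85, 6.97, 6.74, 7.18 and 7.29 in WT and at 4.82, 5.90, 4.40, 5.13 and 3.60 in SCC (difference -2.23, SE 0.36, adjusted p = 0.000802). Adamts5, an aggrecanase and versicanase, was at 10.31, 9.80, 9.58, 9.78 and 10.37 in WT and at 8.22, 8.06, 8.12, 8.36 and 7.29 in SCC (difference -1.96, SE 0.23, adjusted p = 0.000114). A second Adamts5 probe was well above background on every WT array and on no SCC array, and there WT was at least 4.51-fold higher.

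The other 3 fell less. Adamts10, which acts on fibrillin microfibrils, was at 9.75, 9.78, 9.67, 9.97 and 9.75 in WT and at 8.39, 8.73, 8.15, 8.48 and 8.80 in SCC (difference -1.27, SE 0.13, adjusted p = 5.77e-05). Adamts9, a proteoglycanase, was at 10.92, 10.72, 11.06, 10.81 and 10.73 in WT and at 9.85, 9.64, 9.69, 9.69 and 9.80 in SCC (difference -1.11, SE 0.09, adjusted p = 1.98e-05), with hardly any spread among tumours. Adamts6 was at 5.92, 5.40, 5.50, 5.17 and 5.65 in WT and at 4.81, 4.92, 4.17, 4.68 and 3.14 in SCC (difference -1.19, SE 0.32, adjusted p = 0.0129), and it was no longer called without SCC replicate 5 (difference -0.89, adjusted p = 0.00414). With slide as a block, Adamts5, Adamts9 and Adamts10 stayed called, while the difference was -2.57 for Adamts8 (adjusted p = 0.0692), -2.25 for Adamts3 (0.0639) and -1.02 for Adamts6 (0.269).

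Among ADAMTS members not called, Adamts1 was at 13.04, 13.40, 12.94, 13.16 and 13.19 in WT and at 12.53, 12.84, 12.50, 12.64 and 12.61 in SCC, lower without overlap by less than 2-fold (difference -0.52, adjusted p = 0.00319). Adamts1 and Adamts5 are neighbours on chromosome 16. Adamts2, a procollagen amino-propeptidase like Adamts3, gave probes that disagreed. Its brightest probe was at 12.75, 12.95, 12.95, 12.52 and 12.72 in WT and at 12.50, 12.80, 12.20, 12.66 and 12.50 in SCC (difference -0.25, adjusted p = 0.151), whereas 2 dimmer probes differed by 1.06 (adjusted p = 0.000681) and 0.63 (adjusted p = 0.0198). No direction is therefore given for Adamts2. Adamts4, an aggrecanase, differed by 0.59 (adjusted p = 0.0259).

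Several cell type markers moved with these members, and their counts are read against the 11.6% of all tested genes called higher and 13.4% called lower. Neutrophil markers had 3 of 6 tested genes higher and none lower, and their mean level was 8.76 to 9.97 in WT, 8.52 on SCC replicate 2 and 10.48 to 11.24 on the other SCC arrays. Macrophage markers had 3 of 8 higher, with a mean level of 11.48 to 11.95 in WT, 11.50 on SCC replicate 2 and 12.50 to 12.64 on the other tumours. Csf1r (-0.50, adjusted p = 0.00517) and Marco (-0.75, adjusted p = 0.0199) of that list were lower by less than 2-fold. Mmp8, Mmp9, Mmp25, Mmp12, Adam8 and Adam17 set SCC replicate 2 apart from the other tumours in the same direction. So did the squamous markers, all 6 called higher, at a mean level of 9.97 on that array and 13.70 to 14.15 on the other tumours. On the falling side, 7 of 8 endothelial markers were lower, at a mean level of 13.83 to 14.06 in WT and 11.56 to 12.56 in SCC, as were 5 of 8 fibroblast markers (13.70 to 13.91 against 12.07 to 13.36), 4 of 5 alveolar type 1 markers (14.41 to 14.81 against 13.19 to 13.63), 3 of 6 smooth muscle markers and 5 of 6 cardiac muscle markers. Col1a1 (0.66, adjusted p = 0.00581) and Col3a1 (0.53, adjusted p = 0.0062) of the fibroblast list were higher by less than 2-fold. Aqp5, the other alveolar type 1 marker, was higher by less than 2-fold (0.64, adjusted p = 0.0233), without WT replicate 1, which had no value. None of 6 alveolar type 2 markers was called. Sftpb (-0.855, adjusted p = 0.00954), Sftpa1 (-0.74, adjusted p = 0.000123) and Lamp3 (-0.81, adjusted p = 0.000643) were lower by less than 2-fold, and the others did not pass. Sftpc read 18.80 on every WT array and 18.45 to 18.80 in SCC. The part of these cells in the members' differences was not tested. In whole tissue, fewer cells of a type and less RNA per cell cannot be told apart.

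Genes that act with these proteases were counted from lists, and the shares called are read against the 24.9% of all tested genes, 11.6% higher and 13.4% lower. Of 11 tested genes of the plasminogen system and proprotein convertases, which activate zymogens, 3 (27.3%) were higher: Serpinb2 (4.72), Plau, which encodes urokinase (1.57), and Plat (1.43), in log2 units. SCC replicate 2 was inside the WT range for all 3: Serpinb2 was at 5.86 there, against 5.32 to 6.98 in WT and 11.46 to 12.15 on the other tumours, Plau at 7.43 (WT 6.88 to 8.05) and Plat at 11.17 (WT 11.04 to 12.02). Among 7 genes listed as other inhibitors 2 were lower (28.6%): Reck, a membrane-anchored inhibitor of MMPs, fell by 2.75, and Pcolce, which enhances procollagen C-proteinases and is no inhibitor of them, by 1.00. Pcolce on SCC replicate 2 was at 15.56, above every WT array (15.31 to 15.48), while the other tumours were at 13.75 to 14.26. Of 10 other metzincins and ADAMTS-like proteins 5 were called (50%). Adamdec1 was higher by 1.89 and the ADAMTS-like genes Adamtsl1, Adamtsl2, Adamtsl3 and Adamtsl5 were lower, with differences of -1.14, -1.08, -1.73 and -1.22; Adamtsl2 on SCC replicate 2, at 9.30, was inside the WT range (9.07 to 9.74). Of 10 iRhoms, tetraspanins and inducers, Tspan33, a tetraspanin that escorts Adam10, was the 1 called (10%, difference 2.48). Without the 2-fold requirement, under which 53.9% of all tested genes passed, 8 of the 10 did, which besides Tspan33 were Tspan14 (0.85), Rhbdf2 (0.66), an iRhom that carries Adam17 to the surface, Bsg (0.57) and Cd9 (0.39) on the higher side and Tspan15 (-0.78), Tspan17 (-0.69) and Cd151 (-0.67) on the lower. Of 10 ADAMTS substrates 2 were called (20%), Vwf (-1.78), which is also among the endothelial markers, and Ncan (-1.02). Of 16 ligands and receptors shed by ADAMs 8 were called (50%). Higher were 6, namely the EGF receptor ligands Areg (2.90), Btc (1.11) and Ereg with Tnf (1.88), Sdc1 (1.72) and L1cam (1.20), and Egf (-1.18) and Cx3cl1 (-1.37) were lower. Tnf, Egf and Cx3cl1 on SCC replicate 2 were inside their WT ranges, at 7.28, 7.21 and 13.04. Btc on SCC replicate 5, at 7.17, was also inside its WT range (6.88 to 7.85). Ncan was so on SCC replicates 1 and 4, at 5.82 on both (WT 5.76 to 7.28). Ereg was well above background on 1 WT and 4 SCC arrays, with readings of 2.35 to 5.98 in WT and 4.79 to 6.94 in SCC that overlapped, so no size is given for it.

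Of the 19 members not tested, Adam22 and Mmp20 were well above background on no array, 10 were so on SCC replicate 5 alone, and 17 were so on that array. The number of members well above background was 63 on SCC replicate 5 and 43 to 49 on the other 9 arrays. Adamts19, whose brightest probe was not tested, had another probe well above background on 4 WT arrays and no SCC array, for which WT was at least 1.92-fold higher by the bound. The tested members not yet described (Mmp17, Mmp23, Adam4, Adam5, Adam11, Adam18, Adam19, Adam21, Adam33, Adamts7, Adamts14, Adamts15 and Adamts18) had differences between -1.20 and 0.62, none of them called.

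**Figure D4:**
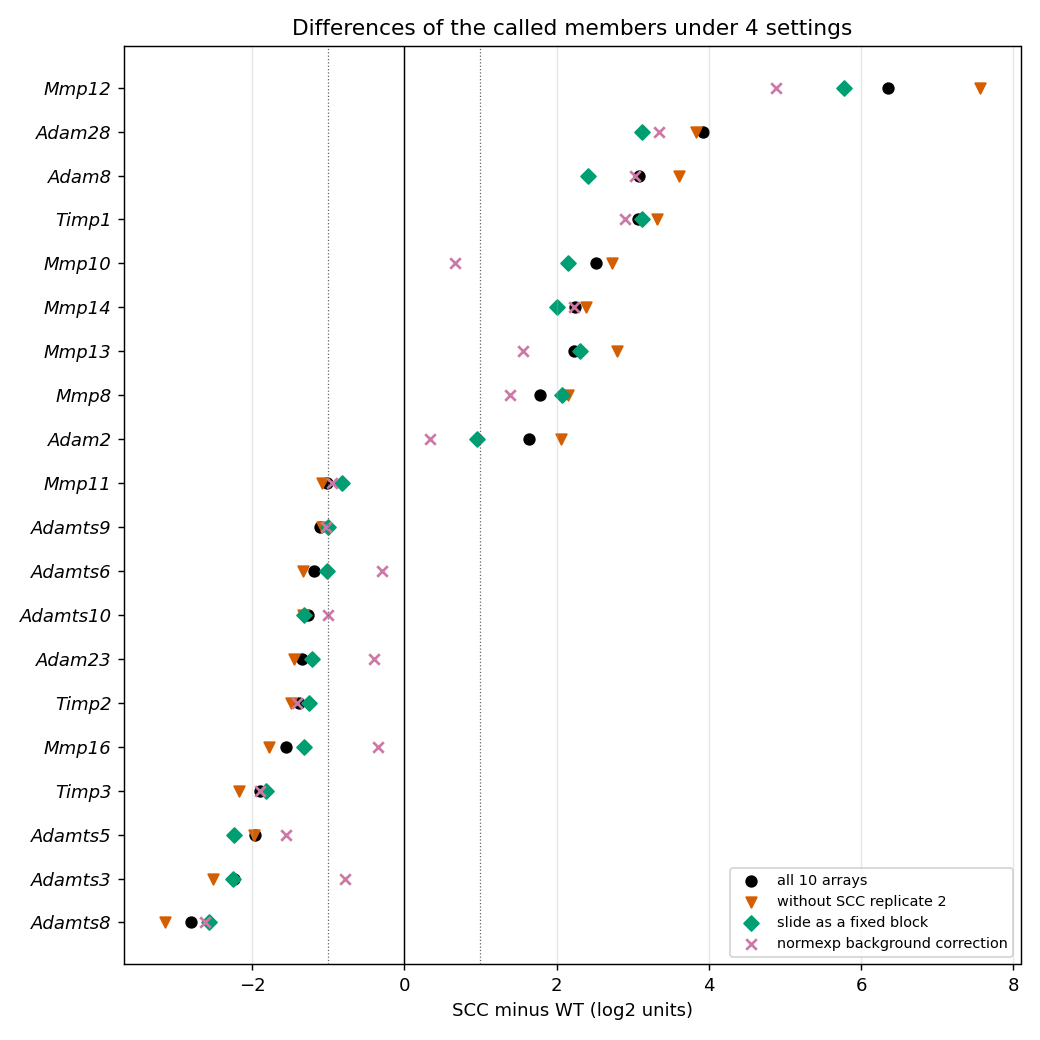
Difference between SCC and WT in log2 units for the 20 called members in all 10 arrays and under 3 other settings, with dotted lines at 2-fold. No difference changes sign, and Mmp10, Mmp11, Mmp16, Adam2, Adam23, Adamts3 and Adamts6 move inside the 2-fold lines under normexp background correction; the points of Mmp10 and Adam2 rest on WT readings at background.

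Leaving out SCC replicate 2 kept all 20 calls and added Mmp9, Mmp19 and Mmp25. Leaving out SCC replicate 5 added Mmp19 and Adam18 (difference -1.70, adjusted p = 0.000134) and lost Adamts6. With both left out, Adam17, Adam18, Mmp9, Mmp19 and Mmp25 were added and Adamts6 was lost. Within the second slide, where SCC replicates 1 to 3 can be set against WT replicate 5, all 20 called members kept their direction. Normexp background correction ended 7 calls by bringing the difference under 2-fold, those of Mmp10 (0.66), Mmp16 (-0.34), Mmp11 (-0.95), Adam2 (0.34), Adam23 (-0.40), Adamts3 (-0.78) and Adamts6 (-0.30). Scaling to the 75th percentile ended those of Adam23 (-1.05, adjusted p = 0.0776) and Adamts6 (-0.67, adjusted p = 0.132).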

How the data were processed

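RNA of 5 WT lungs and 5 SCC samples was hybridised to Agilent arrays. Per the file headers, the authors read spots with Agilent Feature Extraction 12, and the deposited files give background-subtracted processed intensity on a linear scale with flags. The authors' deposited matrix of log2 values follows quantile normalization and was used to pick each gene's probe and as an alternative. Here, flagged outlier and control spots were removed, log2 processed intensity was averaged per probe and quantile-normalized, and SCC was compared with WT with R 4.3.3 and limma 3.58.1 (a moderated two-sided test, lmFit then eBayes, no covariates) in place of the one-way analysis of variance in the study's methods. Benjamini-Hochberg adjustment ran over 30374 probes, those well above background (at least 0.5 of a probe's spots) on at least 4 of 5 arrays of a group. Quantile normalization assumes that most probes do not shift together. Symbols and promoters came from RefSeq (GRCm38.p6), matched by accession without version, which named 68.5% of probes. Named members were the TIMPs, up to 6 called members in each direction per family and the 2 brightest uncalled members per family; other members were added after their values were seen. The members and lists were chosen with earlier results of these data known. The number of arrays limits the precision, and 5 against 5 allows an exact permutation p no smaller than 0.00794. Alternatives were background correction, scaling, filters, slide and replicate blocks, other probes, weights, the methods' t-test and leaving out arrays.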

Additional observations from a re-analysis of the deposited data

Results flagged for a closer look

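Single arrays that lay far from the rest of their group were looked for with Dixon's ratio, the gap to the nearest array over the range of the group, among the tested members. The ratio was above 0.71 in 12 of 93 groups, where chance gives about 1 in 20 for independent groups. The members share the same arrays, and the share over all tested genes was not computed. The count is therefore not read as a trait of the members. SCC replicate 2 was the low array for 6 genes. It gave 7.33 for Mmp12, where the other tumours ranged from 12.91 to 13.68 (ratio 0.88), Adam8 at 13.67 against 16.22 to 16.38 (0.942), and Adam17 at 10.93 against 11.97 to 12.08 (0.902). Mmp9 was at 6.79 against 9.66 to 10.42 (0.792), Mmp8 at 8.28 against 9.96 to 10.50 (0.755), and Mmp25 at 3.74 against 6.56 to 7.59 (0.733).

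SCC replicate 5 was the outlying array for 5 genes. Adam11 was high there at 7.85, with the other tumours between 5.52 and 5.96 (ratio 0.812), as were Adam18 at 7.19 against 4.46 to 5.01 (0.8) and Adamts14 at 8.34 against 6.91 to 7.32 (0.716). Adam4 was low at 5.33 against 7.14 to 7.69 (0.768), and Adamts5 at 7.29 against 8.06 to 8.36 (0.722). In the WT group, Mmp15 was at 3.42 on replicate 1 against 10.48 to 11.03 on the others (0.927).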

How the results depend on the processing

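Of the 20 called members, 7 (Timp1, Timp2, Mmp14, Adam28, Adamts5, Adamts9 and Adamts10) stayed called under all 22 alternatives, 13 lost the call under at least 1, and none changed sign. Normexp background correction gave 3969 called probes in place of 6954 (1909 higher and 2060 lower) and 6 lower members in place of 11. Slide as a fixed block gave 2989 probes (1402 higher and 1587 lower), 4 higher and 4 lower members. Slide as a random block gave a within-slide correlation of -0.017 and the same counts of members. Requiring signal on all 10 arrays left 7 lower members, and an adjusted p alone gave 14878 probes (6790 higher and 8088 lower) and 17 lower members. Adjusted p alone left out the 2-fold requirement, and the stricter filter left fewer probes. Normexp was run with an offset of 50, and the slide block takes the difference from the only slide that holds both groups. Apart from the dropped 2-fold requirement and the smaller number of probes, the cause of these shifts was not tested. Scaling to the 75th percentile moved the median difference of the tested probes from -0.09 to 0.026 and the share of higher calls from 43.3% to 52.9%. Leaving out 1 array gave 6385 to 8135 probes, 9 to 12 higher and 10 to 11 lower members. The methods' t-test gave 9 higher and 11 lower members after Benjamini-Hochberg adjustment, and 8 and 10 at an unadjusted p of 0.01 with 2-fold.

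Small differences changed sign. These were Adam11 (0.036) and Adamts18 (0.014) under normexp correction; Timp4 (0.007), Adam9 (0.008), Adam11 (0.005), Adam21 (0.078) and Adamts18 (0.134) under 75th percentile scaling; and Mmp2 (0.175) and Adam9 (0.119) with slide as a block. With arrays left out, Adam11 ranged from -0.527 (without both SCC replicates 2 and 5) to 0.082, and it was at 0.08 without WT replicate 2, 0.014 without SCC replicate 2, 0.082 without SCC replicate 3 and 0.074 without SCC replicate 4, Adamts18 ranged from -0.474 (without both) to 0.062 (without SCC replicate 1), and Timp4 was at -0.285 with SCC replicate 4 left out and at 0.027 with SCC replicate 3 left out. Other probes gave 0.183 for Adam11 and 1.058 and 0.627 for Adamts2.

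The labels do not say whether equal replicate numbers mark pairs. Deviations of same-numbered arrays correlated between -0.103 and 0.009, which shows no pairing but cannot exclude one. With the replicate number as a block, 6571 probes, 9 higher and 10 lower members were called, and Mmp16 was lost (adjusted p = 0.0576).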
